A study of Homo sapiens and Mus musculus with 21 samples.

Results

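Lyz2-high thymus myeloid cells are the single cells of mouse thymus that carried several transcripts of Lyz2, the lysozyme of macrophages, monocytes and neutrophils, together with Tyrobp and Fcer1g, the signalling adaptors of myeloid receptors. They were chosen from unique molecular identifier (UMI) counts, in which each UMI stands for 1 captured RNA molecule. Kept cells had at least 500 detected genes and under 10% of their UMIs in mitochondrially encoded genes. Members had at least 3 UMIs of Lyz2, at least 2 of Tyrobp and Fcer1g together, under 5 of the MHC class II gene H2-Aa, and none of the B cell gene Cd79a or the thymocyte recombinase gene Rag1. This gate took 54 of 16079 kept cells, out of 17918 barcodes in all. The levels of these 6 genes chose the members and are given as description.

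The study asked what the RNA helicase DHX15, an ATP-driven enzyme of pre-mRNA splicing and ribosome assembly, does in acute leukemia and in thymocytes. Its 21 samples include 2 thymus libraries, made with 10x Genomics droplets from strained thymus of mice aged 6 weeks, with no sort or enrichment described. One library was from Dhx15 KO mice and the other from Dhx15fl/fl mice, which carry the floxed Dhx15 allele. The sources used here do not state the Cre driver, the deleted exons or how many mice went into a library. With 1 library per genotype there is no replicate check, so genotype, animal and library cannot be told apart, and no p-value is given. Counts carry exact Poisson intervals, shares carry exact (Clopper-Pearson) binomial intervals and ratios of summed levels carry the conditional binomial interval, all at 95%, and all of these cover counting error only. Where a count was 0, the largest share it allows was taken as 3 counts.

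Myeloid cells are a small minority of the thymus. Resident thymic macrophages engulf the many thymocytes that die during selection, and they are known for the complement component C1q, apolipoprotein E, lysosomal enzymes and iron recycling genes. Monocytes carry Ly6c2 and Ccr2, and neutrophils fill their granules in order as they mature, with primary granule proteins such as Mpo first, then Ngp, Camp and Ltf, and later gelatinase, when the chemotactic receptor Cxcr2 also appears.

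Dhx15 was measured in few molecules of these cells. Members held 13 Dhx15 UMIs in the Dhx15 KO library, or 77.3 counts per 1000000 UMIs (CPM; interval 41.1 to 132), against 10 UMIs or 205 CPM (98.4 to 377) in the Dhx15fl/fl library. The ratio of Dhx15 KO to Dhx15fl/fl members was 0.377 (0.153 to 0.959). It was 0.0714 after cells were thinned to 1500 UMIs, but thinning left 28 Dhx15 KO and only 2 Dhx15fl/fl members, too few to give a level. In all other kept cells the level was 100.2 CPM in Dhx15 KO cells and 181 CPM in Dhx15fl/fl cells, a ratio of 0.553 (0.537 to 0.571). Within C1q-positive members, described next, 4 UMIs were seen in 34 Dhx15 KO cells and 3 UMIs, all in 1 cell, in 7 Dhx15fl/fl cells, a ratio of 0.298 whose interval of 0.0503 to 2.03 includes 1. In the members with neither C1q nor S100a8/S100a9 transcripts, 2 in each library, 4 and 7 UMIs gave a ratio of 1.36 (0.292 to 5.34), so most Dhx15fl/fl molecules came from those cells. The captured ends may lie outside the deleted exons, so neither level measures deletion in these cells.

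Members were a larger share of the Dhx15 KO library. The gate took 45 of 7261 kept Dhx15 KO cells, 0.620% (0.452% to 0.828%), against 9 of 8818 kept Dhx15fl/fl cells, 0.102% (0.0467% to 0.194%). The intervals did not overlap, and the ratio of the shares was 6.07 (2.93 to 14.1). Kept cells were deeper in the Dhx15 KO library, with a median of 7197 UMIs against 3710 UMIs, while members had medians of 1831 UMIs in the Dhx15 KO library and 1402 UMIs in the Dhx15fl/fl library. A raw count gate reads deeper cells more easily. After every kept cell was thinned to 1500 UMIs, the gate took 28 of 7114 Dhx15 KO cells, 0.394% (0.262% to 0.568%), against 2 of 8539 Dhx15fl/fl cells, 0.0234% (0.00284% to 0.0846%). Thinning left out 147 Dhx15 KO cells, of which 16 were members, and 279 Dhx15fl/fl cells, of which 5 were members.

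The gate lost most cells at Lyz2 and at the limits on other lineages. In the Dhx15 KO library 102 kept cells had at least 3 Lyz2 UMIs, 83 of them also passed Tyrobp and Fcer1g, 57 the H2-Aa limit and 45 the Rag1 limit. In the Dhx15fl/fl library the counts at these steps were 28, 21, 11 and 9. Just inside the Lyz2 threshold, with exactly 3 UMIs, were 11 Dhx15 KO and 4 Dhx15fl/fl members. Just outside it, with exactly 2 Lyz2 UMIs and all other criteria met, were 15 Dhx15 KO and 4 Dhx15fl/fl cells, of which 12 and 4 carried at least 2 UMIs of C1qa, C1qb and C1qc. H2-Aa alone kept out 18 Dhx15 KO and 6 Dhx15fl/fl cells.

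**Figure D1:**
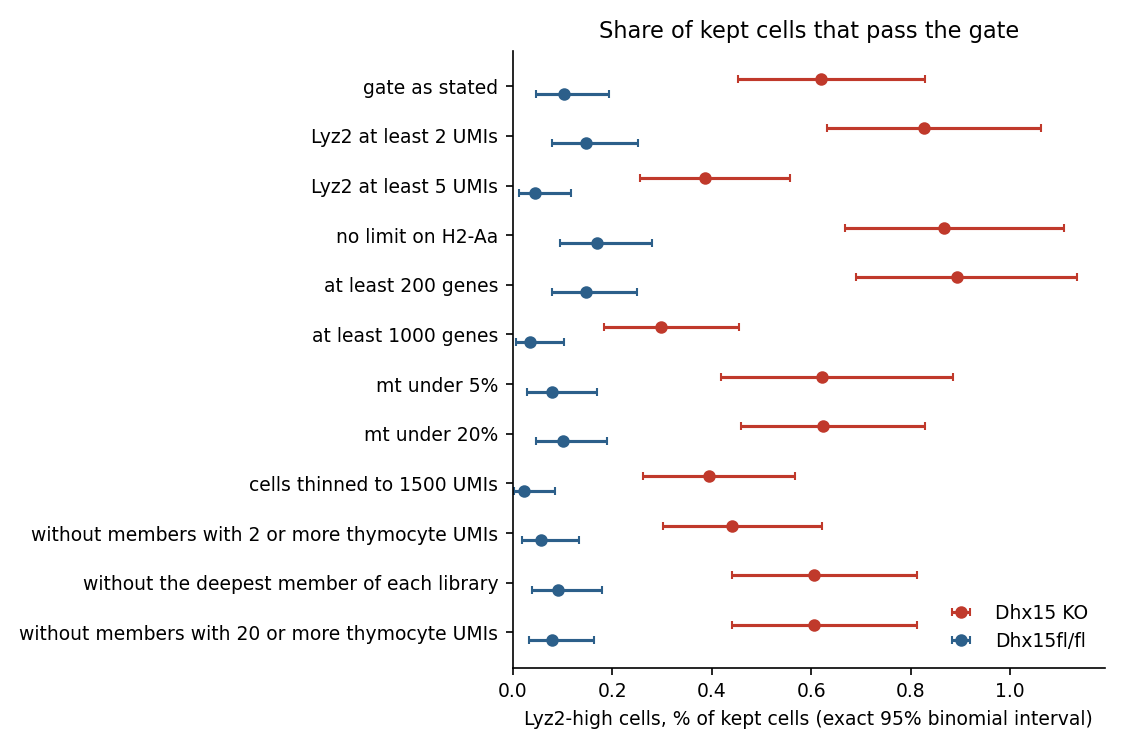
Share of kept cells that pass the gate (x axis, percent of kept cells, with exact 95% binomial intervals) in the Dhx15 KO (red) and Dhx15fl/fl (blue) library under the stated gate and each other setting of the gate, the cell filter or the depth. The Dhx15 KO point lies above the Dhx15fl/fl point in all of these settings, at 0.620% against 0.102% under the stated gate.

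Lyz2 and C1q UMIs were also seen in T cells, which should lack these genes. Among kept cells with a UMI of the T cell gene Cd3e, 5.74% of 6396 Dhx15 KO cells and 1.41% of 8159 Dhx15fl/fl cells had a Lyz2 UMI, at median depths of 7939.5 and 3821 UMIs. The threshold of 3 Lyz2 UMIs was reached by 28 of those Dhx15 KO cells and 6 of those Dhx15fl/fl cells. C1q UMIs were seen in 1.94% of the Dhx15 KO and 1.47% of the Dhx15fl/fl Cd3e cells. The libraries shared 17 barcodes, none of them of members. No cell was removed as a doublet, because the caller Scrublet marked only 1 of the 7261 Dhx15 KO cells and 0 of the 8818 Dhx15fl/fl cells and so did not work here. Transcripts of 7 thymocyte genes (Cd3d, Cd3e, Cd3g, Cd8a, Cd8b1, Trbc1 and Trbc2) therefore served to mark members that carried T cell RNA, which 3 cells did at 20 UMIs or more.

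Members fell into cells with C1q transcripts and cells with S100a8 and S100a9 transcripts, and none held 2 or more UMIs of both sets. C1q marks macrophages, while S100a8 and S100a9 form calprotectin, the main cytosolic protein of neutrophils. At least 2 C1q UMIs were present in 34 of 45 Dhx15 KO members, 75.6% (60.5% to 87.1%), and in 7 of 9 Dhx15fl/fl members, 77.8% (40.0% to 97.2%). At least 2 S100a8 or S100a9 UMIs were present in 9 of 45 Dhx15 KO members, 20% (9.58% to 34.6%), and in 0 of 9 Dhx15fl/fl members, which allows a share of up to 33.3%. Neither set reached 2 UMIs in 2 Dhx15 KO and 2 Dhx15fl/fl members. Of all kept cells, C1q-positive members made up 0.468% (0.324% to 0.654%) in the Dhx15 KO library and 0.0794% (0.0319% to 0.163%) in the Dhx15fl/fl library. S100a8/S100a9-positive members made up 0.124% (0.0567% to 0.235%) of kept Dhx15 KO cells and 0 of the 8818 kept Dhx15fl/fl cells, which allows up to 0.0340%.

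**Figure D2:**
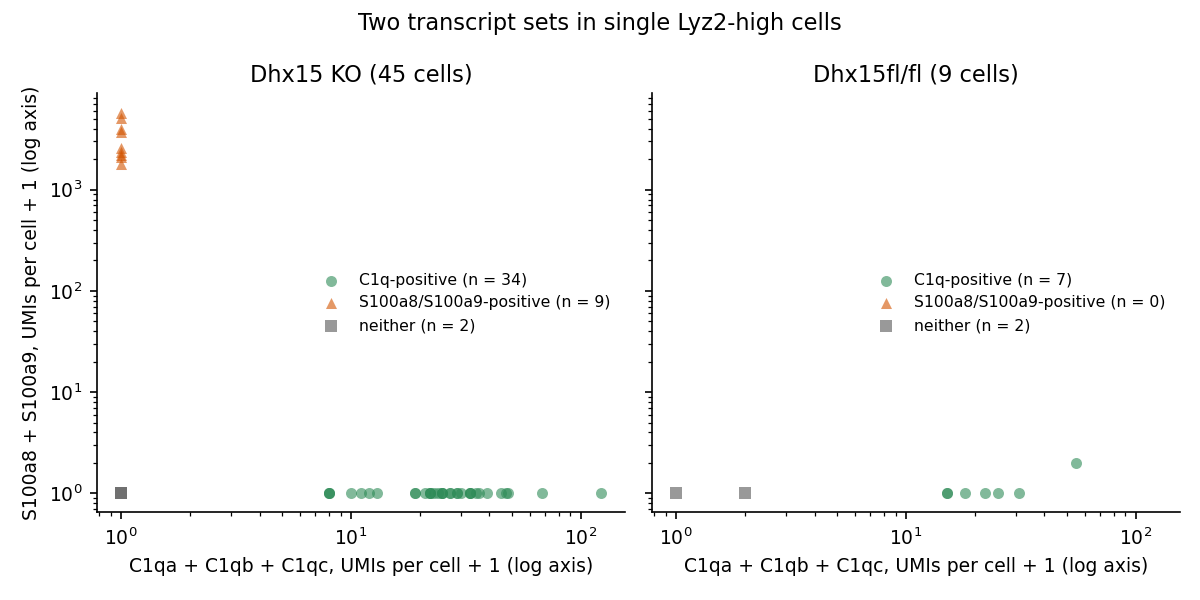
UMIs per cell of C1qa, C1qb and C1qc (x axis, plus 1, log axis) and of S100a8 and S100a9 (y axis, plus 1, log axis) in 45 Dhx15 KO members (left) and 9 Dhx15fl/fl members (right); the 2 Dhx15 KO cells with neither set lie on the same point. The 9 S100a8/S100a9-positive cells, with 1790 to 5785 UMIs of these genes, are all in the Dhx15 KO library and have no C1q UMI.

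The few deep cells carried most of the molecules, so summed levels over all members weigh these kinds unequally. The 9 S100a8/S100a9-positive cells held 52.7% of the 168242 UMIs of Dhx15 KO members and 52.6% of their Lyz2 UMIs. In the Dhx15fl/fl library the 2 cells with neither set held 70.1% of the 48731 UMIs and 71.3% of the Lyz2 UMIs, and the deepest of them alone held 46.8% of the UMIs. C1q-positive cells were shallow in both libraries, with a median of 1547.5 UMIs in Dhx15 KO and 1353 UMIs in Dhx15fl/fl cells.

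C1q-positive members carried the markers of macrophages and are called macrophage-like. In 34 Dhx15 KO cells C1qa, C1qb and C1qc summed to between 7 and 121 UMIs per cell (median 24), and in 7 Dhx15fl/fl cells to between 14 and 54 (median 21). Apoe, the apolipoprotein that macrophages secrete, was detected in all 41 of these cells, with 3 to 148 UMIs (median 37) in Dhx15 KO cells and 3 to 81 (median 29) in Dhx15fl/fl cells. The ranges of both libraries overlapped for both measures. C1q chose these cells, so its levels are a description. Of 24 macrophage markers, which include the C1q genes, 23 were detected. Of 22 neutrophil markers 2 were detected, with 1 UMI in each library. Of 19 monocyte markers 11 were detected, with 40 UMIs in Dhx15 KO and 2 in Dhx15fl/fl cells, led by Ifitm3 (16 UMIs in 8 Dhx15 KO cells) and Treml4 (13 in 11), while Ly6c2 and Ccr2 were at 0. Of 18 conventional dendritic cell markers 4 were detected, with 23 UMIs in Dhx15 KO and 2 in Dhx15fl/fl cells, of which Irf8 gave 18 in Dhx15 KO cells, while Flt3, Ccr7 and Fscn1 were at 0.

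One Dhx15fl/fl macrophage-like cell carried 116 thymocyte UMIs, 81 of them of Trbc1, whereas the other 6 carried 0 to 2 and the 34 Dhx15 KO cells 0 to 4. That cell held 6916 of the 14547 UMIs of the Dhx15fl/fl macrophage-like cells, so values are given with and without it, and the choice was made after it was seen. Without it the macrophage list summed to 50177 CPM in Dhx15 KO and 53073 CPM in Dhx15fl/fl cells, a ratio of 0.945 (0.852 to 1.05). With it the Dhx15fl/fl sum was 33409 CPM and the ratio 1.5 (1.36 to 1.66). The thymocyte list summed to 1488 CPM in Dhx15 KO cells, against 2097 CPM in Dhx15fl/fl cells without that cell and 13336 CPM with it.

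Genes with at least 30 UMIs over both libraries were compared by the ratio of summed CPM, and a gene was counted as higher or lower at 2-fold or more, which is a rule of size and not a test. Over the 34 Dhx15 KO and 6 Dhx15fl/fl macrophage-like cells, 49 of 369 genes (13.3%) were at least 2-fold higher and 12 (3.25%) at least 2-fold lower in Dhx15 KO cells, with a median log2 ratio of 0.11. With the seventh Dhx15fl/fl cell the counts were 81 (20.6%) and 11 (2.79%) of 394 genes. Of the 16 macrophage markers with enough UMIs, 2 were at least 2-fold higher and none lower without that cell, and 8 were higher and none lower with it. The values below are those without it unless stated. With that cell the ratios of the other lists were 1.65 for lysosomal, 1.77 for lipid, 1.40 for iron and heme, 1.66 for MHC class I, 1.66 for interferon response, 1.56 for phagocytic receptor and 3.38 for myeloid transcription factor genes, and 1.11 for mitochondrially encoded and 0.823 for ribosomal protein genes.

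The core macrophage transcripts depended on the seventh Dhx15fl/fl cell. Apoe summed to 22489 CPM in Dhx15 KO and 22409 CPM in Dhx15fl/fl macrophage-like cells, a ratio of 1.00 (0.856 to 1.18), and the ratio was 1.57 (1.36 to 1.83) with the seventh cell. C1qa stood at 5016 CPM in Dhx15 KO and 6945 CPM in Dhx15fl/fl cells (0.722, 0.539 to 0.985) and C1qb at 5047 and 7470 CPM (0.676, 0.509 to 0.912). With the seventh cell both turned to the other side of 1, at 1.14 (0.870 to 1.51) and 1.15 (0.875 to 1.52). C1qc stood at 4725 CPM in Dhx15 KO and 4456 CPM in Dhx15fl/fl cells, a ratio of 1.06 (0.743 to 1.56), and 1.49 (1.09 to 2.08) with that cell. Vcam1, the adhesion molecule of resident macrophages, was seen in 30 of 34 Dhx15 KO and 5 of 6 Dhx15fl/fl cells, at 3160 and 2359 CPM, a ratio of 1.34 (0.827 to 2.31), and 2.09 (1.34 to 3.41) with that cell. Cd5l, a secreted protein of tissue macrophages, had 34 UMIs in 11 Dhx15 KO cells and none in the 6 Dhx15fl/fl cells, at least 1.33-fold higher with 3 counts as the floor for the Dhx15fl/fl sum (2.53-fold with the seventh cell). Cd163, the haptoglobin-hemoglobin receptor, had no UMI in the 34 Dhx15 KO cells and 6 UMIs in 2 of the 6 Dhx15fl/fl cells, 5 of them in 1 cell. Cd5l and Cd163 were named after their values were seen.

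**Figure D3:**
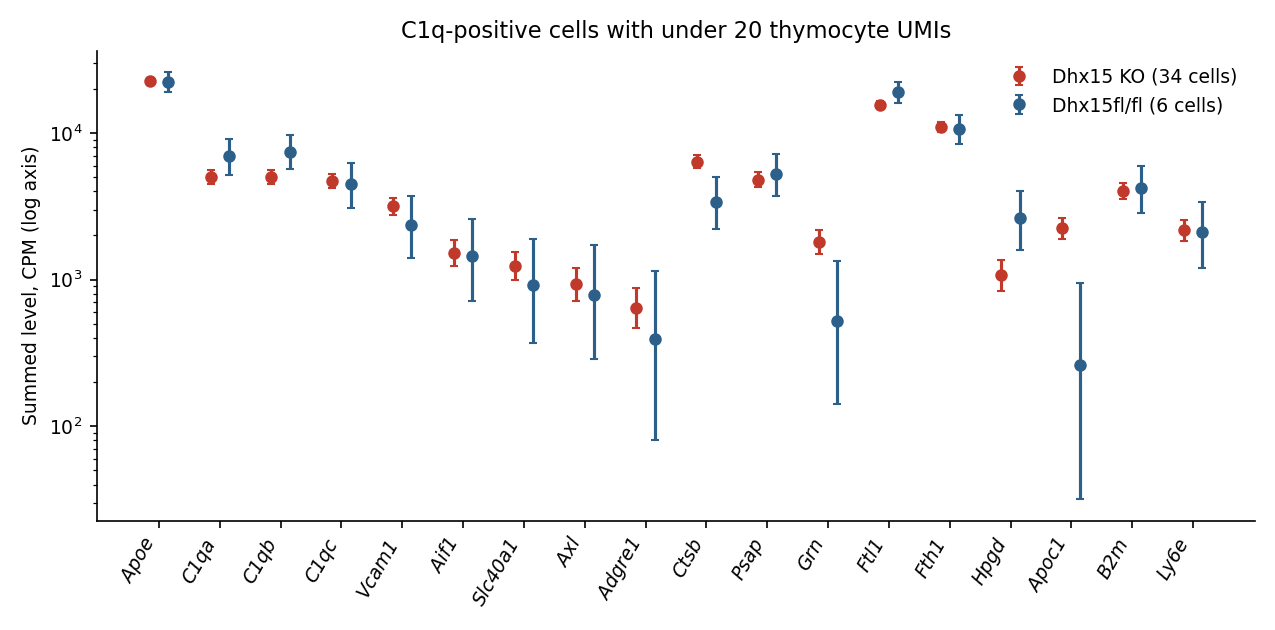
Summed level (y axis, CPM, log axis, with exact 95% Poisson intervals) of 18 genes in macrophage-like cells of the Dhx15 KO library (red, 34 cells) and the Dhx15fl/fl library (blue, 6 cells, without the cell with 116 thymocyte UMIs). Apoe lies at 22489 and 22409 CPM, while Apoc1 lies at 2255 and 262 CPM.

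Lysosomal genes digest engulfed cells, and the list includes the gate gene Lyz2. Without Lyz2 the list summed to 33380 CPM in Dhx15 KO and 28699 CPM in Dhx15fl/fl macrophage-like cells, a ratio of 1.16 (1.01 to 1.34), and 1.82 (1.60 to 2.07) with the seventh Dhx15fl/fl cell. With Lyz2 the ratio was 1.03 (0.907 to 1.17). Of the 18 other genes with enough UMIs, 3 were at least 2-fold higher and none lower, a share of 16.7% against 13.3% of all genes. Ctsb, the protease cathepsin B, stood at 6381 CPM in Dhx15 KO and 3407 CPM in Dhx15fl/fl cells (1.87, 1.26 to 2.90), and the ratio was 2.99 with the seventh cell. Grn, the lysosomal protein progranulin, stood at 1810 CPM in 29 of 34 Dhx15 KO cells, against 524 CPM in 2 of 6 Dhx15fl/fl cells (3.45, 1.31 to 12.9). Psap, the prosaposin that activates lipid hydrolases, stood at 4817 CPM in Dhx15 KO and 5242 CPM in Dhx15fl/fl cells (0.919, 0.660 to 1.31), and at 1.49 (1.09 to 2.07) with that cell. Lyz2 itself stood at 3789 CPM in Dhx15 KO and 7470 CPM in Dhx15fl/fl macrophage-like cells, where 35 of its 57 UMIs were in 1 cell, and at 4125 CPM in Dhx15fl/fl cells with the seventh cell.

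Among lipid genes Apoc1 stood apart from Apoe, its neighbour in the genome. Apoc1, a small apolipoprotein, had 147 UMIs in 24 of 34 Dhx15 KO macrophage-like cells and 2 UMIs in 2 of 6 Dhx15fl/fl cells. Its level was 2255 CPM in Dhx15 KO and 262 CPM in Dhx15fl/fl cells, a ratio of 8.60 (2.34 to 71.7), and with the seventh Dhx15fl/fl cell, which had no Apoc1 UMI, the ratio was 16.4 (4.46 to 137). The lipid list as a whole, dominated by Apoe, summed to 28180 CPM in Dhx15 KO and 24636 CPM in Dhx15fl/fl cells, a ratio of 1.14 (0.984 to 1.34). Of its 5 genes with enough UMIs, 2 were at least 2-fold higher and none lower, the other being the fatty acid binding protein gene Fabp5 (2.26, 0.737 to 11.3; 3.24 with the seventh cell).

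Macrophages recycle iron from engulfed cells, store it in ferritin and export it through ferroportin. The ferritin genes Ftl1 and Fth1 stood at 15555 and 10968 CPM in Dhx15 KO cells, against 19001 and 10615 CPM in Dhx15fl/fl cells. The Ftl1 ratio was 0.819 (0.687 to 0.981) without the seventh cell and 1.25 (1.07 to 1.47) with it, and the Fth1 ratio 1.03 and 1.61. The ferroportin gene Slc40a1 was seen in 22 of 34 Dhx15 KO cells and 2 of 6 Dhx15fl/fl cells, at 1243 and 917 CPM (1.35, 0.628 to 3.48), and at 2.58 with the seventh cell. Hpgd, a prostaglandin dehydrogenase kept on this list, stood at 1074 CPM in Dhx15 KO and 2621 CPM in Dhx15fl/fl cells (0.410, 0.246 to 0.711), but 12 of its 20 Dhx15fl/fl UMIs were in 1 cell, and with the seventh cell the ratio was 0.679 (0.419 to 1.14). Of the 6 list genes with enough UMIs, Spic and the biliverdin reductase gene Blvrb were at least 2-fold higher and Hpgd lower in Dhx15 KO cells, while 3 were higher and none lower with the seventh cell. Blvrb had 45 UMIs in 23 Dhx15 KO cells and 1 UMI in 1 Dhx15fl/fl cell, a ratio of 5.27 with an interval of 0.898 to 213, and 3.35 with that cell.

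Genes of antigen presentation and interferon response had list ratios near 1 without the seventh cell, with intervals that included 1. MHC class I genes summed to 9710 CPM in Dhx15 KO and 9435 CPM in Dhx15fl/fl macrophage-like cells (1.03, 0.806 to 1.33), with B2m, the class I light chain, at 4019 and 4193 CPM (0.958, and 1.58 with that cell). Interferon response genes summed to 5461 CPM in Dhx15 KO and 5635 CPM in Dhx15fl/fl cells (0.969, 0.705 to 1.36), and none of the 4 with enough UMIs was past 2-fold in either direction. MHC class II genes, which the gate limits through H2-Aa, summed to 2731 CPM in Dhx15 KO and 2359 CPM in Dhx15fl/fl cells. Phagocytic and scavenger receptors summed to 4295 CPM in Dhx15 KO and 4587 CPM in Dhx15fl/fl cells (0.936, 0.657 to 1.37). Within them Lrp1, a receptor that clears apolipoprotein particles and dying cells, had 43 UMIs in 17 Dhx15 KO cells and none in the 6 Dhx15fl/fl cells, at least 1.68-fold higher over 3 counts, and at least 3.20-fold with the seventh cell.

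Myeloid transcription factors had the highest ratio among the lists with at least 100 UMIs in Dhx15 KO macrophage-like cells. They summed to 4418 CPM in Dhx15 KO and 2228 CPM in Dhx15fl/fl macrophage-like cells, a ratio of 1.98 (1.22 to 3.45), and all 3 genes with enough UMIs were at least 2-fold higher. Each of the 3 rested on 1 to 4 Dhx15fl/fl UMIs, and each interval included 1. The 3 were also at least 2-fold higher with the seventh cell. Maf, a regulator of resident macrophages, had 41 UMIs in 18 Dhx15 KO cells and 2 UMIs in 2 Dhx15fl/fl cells (2.40, 0.623 to 20.5; 4.57 with the seventh cell). Spic, the factor of iron-recycling macrophages, had 32 UMIs in 11 Dhx15 KO cells and 1 UMI in 1 Dhx15fl/fl cell (3.75, 0.626 to 153; 7.14 with it).

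Mitochondrially encoded transcripts were higher in Dhx15 KO macrophage-like cells, at 43826 CPM against 29747 CPM (1.47, 1.29 to 1.69), and the ratio was 1.11 (1.01 to 1.21) with the seventh cell. The share of UMIs in these genes also differed per cell, with a median of 4.88% (0.0864% to 9.89%) in Dhx15 KO cells and 2.37% (0.0770% to 7.35%) in all 7 Dhx15fl/fl cells, and these ranges overlapped. The cytochrome oxidase gene mt-Co1 stood at 10493 CPM in Dhx15 KO and 4718 CPM in Dhx15fl/fl cells (2.22, 1.59 to 3.20), and the complex I gene mt-Nd1 at 3375 and 1179 CPM (2.86, 1.48 to 6.34). Of the 13 measured genes 9 had enough UMIs, and the other 7 of these stood under 2-fold. With the seventh cell mt-Co1 stood at 1.82, under 2-fold, and mt-Nd1 at 2.13. The mitochondrial share also chose the kept cells, through the limit of 10%. Over all kinds of cell, 638 Dhx15 KO and 260 Dhx15fl/fl barcodes with at least 500 genes failed that limit. Shares under 5% were seen in 4832 of 7261 kept Dhx15 KO cells and 7684 of 8818 kept Dhx15fl/fl cells. Higher shares in the Dhx15 KO library were therefore not particular to macrophage-like cells. A high mitochondrial share is also a common sign of damaged cells, and its part in the other values was not tested. Cytosolic ribosomal protein genes summed to 67665 CPM in Dhx15 KO and 72861 CPM in Dhx15fl/fl cells (0.929, 0.850 to 1.02), with 1 of 33 at least 2-fold higher and 1 lower.

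**Figure D4:**
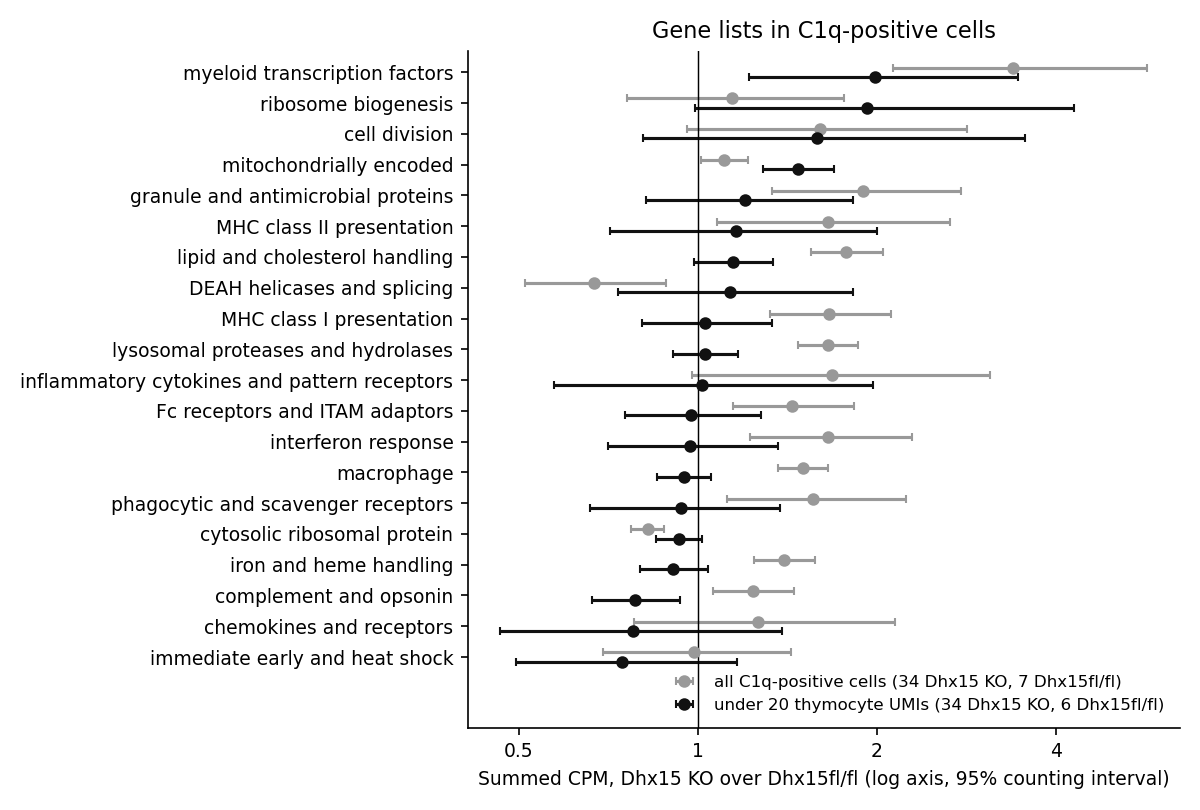
Ratio of summed CPM, Dhx15 KO over Dhx15fl/fl (x axis, log axis, with 95% counting intervals), for gene lists with at least 100 UMIs in Dhx15 KO macrophage-like cells, with (grey) and without (black) the Dhx15fl/fl cell that carried 116 thymocyte UMIs. The macrophage list lies at 1.5 with that cell and at 0.945 without it; only the myeloid transcription factor and mitochondrially encoded lists have intervals above 1 in both.

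Macrophage-like transcripts also occurred outside the gate. Kept cells with at least 10 C1q UMIs numbered 84 in the Dhx15 KO library, 1.16% (0.924% to 1.43%), and 19 in the Dhx15fl/fl library, 0.215% (0.130% to 0.336%). Members were 30 of the 84 and 7 of the 19, while 27 Dhx15 KO and 9 Dhx15fl/fl cells had under 3 Lyz2 UMIs and 22 Dhx15 KO and 2 Dhx15fl/fl cells had at least 5 H2-Aa UMIs. The difference between the libraries was also present in this C1q count, which the gate did not use. The count is not independent of the gate, because it includes members and C1q and Lyz2 come from the same cells and libraries. It was not repeated after thinning to equal depth. Another 60 Dhx15 KO and 13 Dhx15fl/fl barcodes with at least 10 C1q UMIs failed the filter on genes or mitochondrial share.

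S100a8/S100a9-positive members carried neutrophil genes and are called neutrophil-like. All 9 were in the Dhx15 KO library and were deep, with 4998 to 18981 UMIs (median 9221). S100a8 ranged from 860 to 3525 UMIs per cell (median 1214) and S100a9 from 930 to 2429 (median 1390), and over the 9 cells S100a8 stood at 181617 CPM and S100a9 at 152329 CPM. Together these genes gave 1790 to 5785 UMIs per cell (median 2604). The receptor gene Csf3r, for the growth factor G-CSF, was detected in all 9 cells with 1 to 13 UMIs. The same cells had no UMI of C1q or Apoe, and their mitochondrial share was 0.336% to 2.25%, below the median of 4.88% in macrophage-like cells.

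The 9 neutrophil-like cells spread along granule genes. Ngp, Camp and Ltf, the specific granule genes of immature neutrophils, summed to 0, 2, 28 and 36 UMIs in the 4 cells with 4998, 6765, 7056 and 5532 UMIs in all. They summed to 178 and 347 UMIs in the cells with 9221 and 9903 UMIs, and to 1087, 1169 and 1386 in the cells with 11743, 14471 and 18981 UMIs. Cxcr2, the receptor that draws mature neutrophils out of the marrow, had 8 to 24 UMIs in the first 4 cells and 6, 2 and 0 in the last 3. The cells with 9221 and 9903 UMIs had 14 and 1. Retnlg, a resistin-like gene of mature neutrophils, had 22 to 170 UMIs in the first 4 cells and 28, 5 and 0 in the last 3. It had 164 and 35 in the cells with 9221 and 9903 UMIs. The 3 cells with the most Ngp, Camp and Ltf were the 3 deepest and had fewer Cxcr2 UMIs than any of the first 4, while their Retnlg counts overlapped, at 28 against 22 UMIs.

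The deepest neutrophil-like cell differed from the others. It held 310 UMIs of Chil3, a chitinase-like protein, 16 of Cebpe, the transcription factor of granule genes, and 19 of Fcnb, an early ficolin. It also held 13 UMIs of the proliferation gene Mki67, 29 of Top2a and 238 of the histone gene Hist1h2ap, against 0 to 1 Mki67 and 0 to 3 Top2a UMIs in the other 8. Primary granule genes of the earliest stage, Mpo, Elane and Prtn3, had no UMI in any of the 9 cells, an upper Poisson limit of 41.6 CPM for each. Of 26 genes for inflammatory cytokines and pattern receptors, 15 were detected, with 137 UMIs or 1545 CPM (1297 to 1827), against 1733 CPM (1429 to 2084) in Dhx15 KO macrophage-like cells. The cytokine gene Il1b led them with 27 UMIs, 21 of them in 1 cell, and Tnf had 2. The cell with 9903 UMIs carried 33 thymocyte UMIs, the other 8 carried 0 to 5, and its ribosomal share of 14.0% stood above the median of 2.61%.

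**Figure D5:**
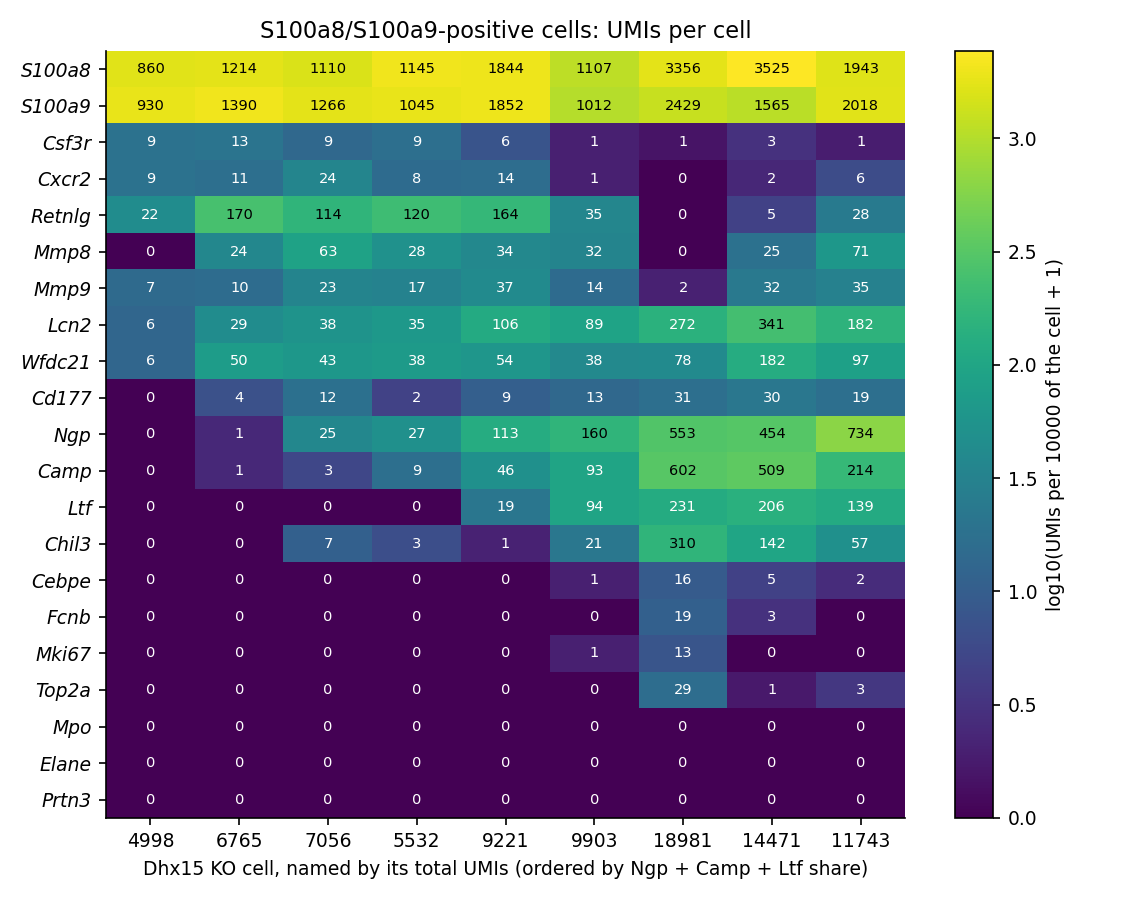
UMIs per cell (numbers) and log10 of UMIs per 10000 of the cell plus 1 (colour) for 21 neutrophil and cell division genes in the 9 neutrophil-like Dhx15 KO cells (x axis, named by total UMIs and ordered by the share of Ngp, Camp and Ltf). Cxcr2 and Retnlg are high on the left, Ngp, Camp, Ltf and Chil3 on the right, and Mki67 reaches 13 UMIs in the cell with 18981 UMIs.

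The count of cells rich in S100a8 and S100a9 was also taken without the gate. Barcodes with at least 50 S100a8 and S100a9 UMIs numbered 17 in the Dhx15 KO library, all kept, and 0 in the Dhx15fl/fl library. With at least 20 UMIs there were 18 Dhx15 KO barcodes and 1 Dhx15fl/fl barcode. Of the 17, 9 were members, and the other 8 missed the gate because 5 had under 3 Lyz2 UMIs and 3 had a Rag1 UMI, while 2 of them held at least 20 thymocyte UMIs. Scattered S100a8 and S100a9 UMIs were nevertheless present in both libraries. In kept cells outside the gate with under 20 such UMIs they stood at 7.63 CPM (7.02 to 8.29) in Dhx15 KO and 15.9 CPM (14.9 to 17.1) in Dhx15fl/fl cells. A UMI of these genes was seen in 7.29% of Cd3e cells in both libraries, at median depths of 7939.5 UMIs in Dhx15 KO and 3821 UMIs in Dhx15fl/fl cells. Whether neutrophils were present in the Dhx15fl/fl suspension and not captured as cells was not tested.

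Of the 4 members with neither set, the 2 Dhx15 KO cells shared the monocyte genes Ccr2, Ly6c2 and Plac8. In the Dhx15 KO library a cell with 11420 UMIs held 318 Lyz2, 91 Apoe, 44 Plac8, 17 Ccr2 and 11 Ly6c2 UMIs, and a cell with 2963 UMIs held 7 Lyz2, 8 Ccr2 and 7 Ly6c2 UMIs. Ccr2, the receptor that recruits monocytes, had a UMI in these 2 of the 54 members, while Ly6c2 was also seen in all 9 neutrophil-like cells, with 2 to 18 UMIs. In the Dhx15fl/fl library a cell with 11400 UMIs held 146 Lyz2, 126 Plac8, 49 S100a4, 38 Ms4a6c and 7 Cx3cr1 UMIs, with 2 Ly6c2 and no Ccr2 UMIs. The deepest Dhx15fl/fl member, with 22784 UMIs, had exactly 3 Lyz2 UMIs, 97 thymocyte UMIs and 37.2% of its UMIs in ribosomal protein genes. It also held 11 UMIs of Mpo, 11 of the stem cell factor receptor gene Kit and 7 of the progenitor gene Cd34, and its T cell transcripts go against the myeloid label of the gate.

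Over all members, 211 of 957 genes with at least 30 UMIs (22%) were at least 2-fold higher in Dhx15 KO members and 167 (17.5%) at least 2-fold lower. The ends of that list followed the kinds of cell. Among the 12 highest genes, S100a9 had 13507 UMIs in Dhx15 KO and 1 UMI in Dhx15fl/fl members, and S100a8 had 16104 UMIs and none, at least 1555-fold higher with 3 counts as the floor. Camp, Lcn2 and Wfdc21 also had no Dhx15fl/fl UMI and were at least 143-fold, 106-fold and 56.6-fold higher, and Itgam, Ifitm6 and Slfn4 came mainly from the neutrophil-like cells. Hist1h2ap owed 238 of its 267 Dhx15 KO UMIs to 1 cell. Apoc1, at 147 UMIs against 2, was the one among the 12 whose UMIs all came from macrophage-like cells. Dstn, an actin-severing protein, and the adhesion receptor gene Cd44 came mainly from neutrophil-like cells, with 27 and 12 UMIs in macrophage-like cells.

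The 12 lowest genes came mostly from single Dhx15fl/fl cells. Plac8 had 88 UMIs in Dhx15 KO and 152 UMIs in Dhx15fl/fl members, 126 of them in the cell with 11400 UMIs, and S100a4 had 19 and 57 UMIs, 49 of them in that cell. Ms4a6c had 22 and 41 UMIs, 38 of them in the same cell. H2afy, Snrpg, Eef1b2, Cmtm7 and Erh owed 68% to 83.7% of their Dhx15fl/fl UMIs to the cell with progenitor genes. The other 4, Paip2, Ifi203, Eef1g and Cdk4, had 17 to 36 Dhx15fl/fl UMIs each. Paip2, Cdk4 and Eef1g owed 47.6%, 52.9% and 61.1% of these to that same cell, and 16 of the 29 Ifi203 UMIs were in 1 cell. Without the 3 members with at least 20 thymocyte UMIs, 119 of 776 genes (15.3%) were at least 2-fold higher and 137 (17.7%) lower in Dhx15 KO members. Without the neutrophil-like cells, 148 of 601 genes (24.6%) were higher and 72 (12%) lower.

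Gene lists over all members also followed the kinds of cell. All 15 neutrophil markers with enough UMIs were at least 2-fold higher in Dhx15 KO members, against 22% of all genes. The list summed to 37055 UMIs in Dhx15 KO and 20 in Dhx15fl/fl members. Without neutrophil-like cells it summed to 3 against 20, and 0 of its genes had enough UMIs. The 15 thus entered the count only through the Dhx15 KO cells in which they were high, and the count is a description. The macrophage list stood at 20459 CPM in Dhx15 KO and 10630 CPM in Dhx15fl/fl members (1.92, 1.75 to 2.11). Of its 16 genes with enough UMIs, 9 were higher and none lower, against 22% and 17.5% of all genes. Without the 3 members with T cell RNA the macrophage ratio was 0.951 (0.860 to 1.05), with 2 genes higher and 1 lower. In cells thinned to 1500 UMIs it was 0.629 (0.527 to 0.755). Thinning left 28 Dhx15 KO and only 2 Dhx15fl/fl members, too few to give a level, and the interval covers counting error only. The monocyte list had 3 genes higher and 3 lower among 7, at 9159 CPM in Dhx15 KO and 7141 CPM in Dhx15fl/fl members, and its ratio of 1.28 became 0.588 without those 3 members. Thymocyte genes stood at 1260 CPM in Dhx15 KO and 6341 CPM in Dhx15fl/fl members, and their part in the other ratios was not tested beyond leaving those cells out.

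Against all other kept cells, 15 genes stood out most in members of both libraries. Ranked by the smaller ratio of the 2 libraries they were Chil3, Mmp8, Ifitm6, Hp, Vcam1, C1qc, Slc40a1, Lyz2, C1qb, C1qa, Aif1, Cfp, Wfdc17, Cybb and Apoe. Vcam1 was 360-fold higher in Dhx15 KO members and 358-fold higher in Dhx15fl/fl members than in the other cells of their library. The first 4 of these rested on 1 Dhx15fl/fl cell each. Wfdc17, a secreted antimicrobial-like protein, was seen in 53.3% of Dhx15 KO and 22.2% of Dhx15fl/fl members. Cybb, the membrane subunit of the NADPH oxidase, was seen in 57.8% of Dhx15 KO and 22.2% of Dhx15fl/fl members. Each of them was also seen in 30% of the Dhx15fl/fl cells high in MHC class II, described next, and Cybb stood there at 279 CPM against 267 CPM in Dhx15fl/fl members. Aif1 was seen in 66.1% of Dhx15 KO and 65% of Dhx15fl/fl cells high in MHC class II, against 66.7% and 88.9% of members. Lyz2 is on the list because the gate chose it.

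Macrophage-like members were set beside MHC class II high cells, which are the kept cells with at least 5 H2-Aa UMIs and none of Cd79a or Rag1. Those numbered 56 in the Dhx15 KO library, 0.771% (0.583% to 1.00%), and 20 in the Dhx15fl/fl library, 0.227% (0.139% to 0.350%), so they too were a larger share of the Dhx15 KO library. C1q UMIs, at least 2, were present in 19 of the 56 and 3 of the 20. Within the Dhx15 KO library Apoe was 8.03-fold higher in macrophage-like cells than in MHC class II high cells, and within the Dhx15fl/fl library 59.0-fold higher (37.6-fold with the seventh cell). Vcam1 was 14.9-fold higher within the Dhx15 KO library and 66.2-fold higher within the Dhx15fl/fl library (42.5-fold with that cell). Cd74, the invariant chain of MHC class II, stood at 0.104 of the MHC class II high level in the Dhx15 KO library and 0.0542 in the Dhx15fl/fl library (0.0411 with that cell). The H2-Aa criterion split these cells, so the Cd74 difference is a description.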

How the data were processed

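The thymus matrices hold whole UMI counts per gene and cell as deposited by the authors, written by Cell Ranger 6.0.1 per the file headers; 10x Genomics droplets were used per the labels. The submitters' processing notes name Cell Ranger 6.0.2, Scanpy 1.7.1 and mm10 but give them no role. Human CUTLL1 files were not used here. The libraries held 76624241 (Dhx15 KO) and 50714502 (Dhx15fl/fl) UMIs over 28692 gene rows.

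Cells were filtered and gated on raw counts in Python 3.11.15 with numpy 2.4.6, scipy 1.17.1 and pandas 2.3.3, and figures used matplotlib 3.10.9. Counts were summed per library and kind of cell and scaled to CPM. Ratios were taken for genes with at least 30 UMIs, and a sum of 0 was replaced by 3 counts. Code was tested on simulated counts. Scrublet was run in scanpy 1.11.5. The members, the 32 gene lists (11 of markers) and the rules were chosen with earlier results of these data known.

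Genes were named by rule: Dhx15, the 6 gate genes, the 12 highest and 12 lowest ratios among genes with at least 30 UMIs and a UMI in at least 20% of members of the higher library (leaving out mt-, ribosomal protein, Gm and Rik genes and T cell receptor segments), the 15 genes most above other cells with at least 100 UMIs, and up to 5 genes per list. Some others, such as genes of single cells, were named after their values were seen. Alternatives changed the Lyz2, H2-Aa, gene and mitochondrial limits, depth, scaling, the minimum of UMIs and the cells included. Some genes that the rule names are not reported here.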

Additional observations from a re-analysis of the deposited data

How the results depend on the processing

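No paired analysis was possible because each genotype has 1 library and the labels give no shared animal, so library, animal and genotype cannot be told apart. The 9 Dhx15fl/fl members and their 48731 UMIs limit every ratio. The Dhx15 KO share of kept cells stayed above the Dhx15fl/fl share in every setting run. Removal of called doublets changed nothing, since no member was called. The last 3 selections of members below were chosen after the data were seen. The causes of the shifts below were not tested, beyond the fewer cells or genes that a setting leaves.

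The share of kept cells in the gate was 0.386% in Dhx15 KO and 0.0454% in Dhx15fl/fl cells with at least 5 Lyz2 UMIs, 0.297% and 0.0355% with at least 1000 genes, and 0.394% and 0.0234% after thinning. In Dhx15 KO cells it was 0.868% with no H2-Aa limit, 0.892% with at least 200 genes and 0.442% without members with 2 or more thymocyte UMIs. With at least 1000 genes, C1q-positive cells were 47.6% of Dhx15 KO and 33.3% of Dhx15fl/fl members and S100a8/S100a9-positive cells 42.9% of Dhx15 KO members; without members with 2 or more thymocyte UMIs all Dhx15fl/fl members (100%) were C1q-positive. The Dhx15 ratio in members was 0.0714 after thinning, which left only 2 Dhx15fl/fl members.

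The number of genes with enough UMIs changed with the cells and the minimum, so the counts below cannot be compared directly. Genes at least 2-fold higher in Dhx15 KO members were 211 of 957 (22%) in the stated analysis. They numbered 112 with at least 5 Lyz2 UMIs, 30 after thinning and 90 without members with 2 or more thymocyte UMIs. They numbered 129 without the deepest members, and 460 and 48 with a minimum of 15 and 100 UMIs. Without members with 20 or more thymocyte UMIs they were 119 of 776 (15.3%), and in C1q-positive members 81 of 394 (20.6%). Genes at least 2-fold lower, 167 of 957 (17.5%) in the stated analysis, numbered 31 after thinning and 90 without members with 2 or more thymocyte UMIs. They numbered 276 with gate, mitochondrial and ribosomal protein genes left out of the total, and 85 with the mean of per-cell CPM. With a minimum of 15 and 100 UMIs they numbered 425 and 89. In C1q-positive members they were 11 of 394 (2.79%), and without S100a8/S100a9-positive members 72 of 601 (12%).

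Of 529 list ratios over the settings, 280 stayed within the counting interval of the stated value, 228 moved out of it and 21 crossed 1 after a stated ratio of at least 2-fold. With at least 5 Lyz2 UMIs those were thymocyte genes (1.68), phagocytic receptors (0.890), lipid handling (0.816), ribosome biogenesis (1.01) and sex chromosome transcripts (1.06). After thinning, which left only 2 Dhx15fl/fl members, they were thymocyte genes (1.26), phagocytic receptors (0.517), lipid handling (0.855) and ribosome biogenesis (1.23). Without members with 2 or more thymocyte UMIs they were phagocytic receptors (0.546), iron handling (0.665), lipid handling (0.490) and ribosome biogenesis (1.49). With the mean of per-cell CPM, thymus stroma stood at 1.27. Without members with 20 or more thymocyte UMIs, phagocytic receptors stood at 0.959, ribosome biogenesis at 1.12 and sex chromosome transcripts at 1.10. In C1q-positive members the neutrophil list stood at 0.223, conventional dendritic cell genes at 2.57 and ribosome biogenesis at 1.14, and without S100a8/S100a9-positive members the neutrophil list stood at 0.0919.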
